A study of Mus musculus with 2 samples.

Results

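Sites of open chromatin found in replicate 2 only made up 7074 of the 65403 autosomal peaks of that library's longer peak list, which was 10.8% of it. They came from a DNase I hypersensitivity assay (DNase-seq) of whole thymus, taken at 25 days of age from 2 female mice of the strain B6CASTF1/J, with 1 library per animal, labelled biological replicates 2 and 1, and 1 group in all. B6CASTF1/J is a first-generation hybrid of the inbred C57BL/6J and CAST/EiJ strains, and no treatment, genetic change or second tissue was labelled. A peak counted as found in replicate 2 only when no peak of the longer replicate 1 list overlapped it by even 1 bp; the other 58329 peaks are called shared here. The same rule turned round left 65770 of the 124227 autosomal replicate 1 peaks without a partner, or 52.9%. Presence or absence in the other peak list chose the sites, so every value that contrasts the libraries at these sites is a description and was given no test.

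DNase I cuts DNA that is not wrapped tightly on nucleosomes. Active promoters and enhancers are therefore cut densely, and short protected stretches inside such a site (footprints) can mark bound protein. A peak list is the outcome of a threshold on that cutting, and a weak site can pass it in one library and miss it in another. The deposited false discovery rate file of each library lists the bases whose cutting passed 0.05, whether or not a peak was called over them, which allowed replicate 1 to be examined at sites where it had no peak. In developing T cells, RUNX, ETS, TCF-1 and E-protein factors bind many such sites, and CTCF, the factor that anchors chromatin loops, binds a large set that is open in most tissues.

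The longer lists held 67270 peaks in replicate 2 and 127552 in replicate 1 before restriction to the 19 autosomes, and no source used here gives read totals. Of 12 thymocyte marker genes, all 12 had a promoter peak in replicate 2 and all 12 in replicate 1. Markers of other cell types had fewer promoter peaks (replicate 2, then replicate 1): B cell markers in 2 and 3 of 6, myeloid and dendritic markers in 4 and 4 of 7, thymic epithelium markers in 1 and 1 of 6, stroma and endothelium markers in 2 and 3 of 6, and erythroid markers in 1 and 1 of 4. Of these promoter peaks, 1 was a replicate 2-only site, and it lay at a thymocyte marker gene. Whole tissue was used, so fewer cells of a type and less accessible DNA per cell cannot be told apart.

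The sites are of 3 kinds, which the sequences below illustrate, all read from the plus strand of the GRCm38 reference, the build of the files. Gene names are those of the nearest protein-coding gene start, and an exon or intron label can come from another gene. The first set holds the 4 densest sites, which all lay beside a replicate 1 peak, and capitals mark the bases inside replicate 2 footprints.
Cirbp intron, chr10:80167561-80167820: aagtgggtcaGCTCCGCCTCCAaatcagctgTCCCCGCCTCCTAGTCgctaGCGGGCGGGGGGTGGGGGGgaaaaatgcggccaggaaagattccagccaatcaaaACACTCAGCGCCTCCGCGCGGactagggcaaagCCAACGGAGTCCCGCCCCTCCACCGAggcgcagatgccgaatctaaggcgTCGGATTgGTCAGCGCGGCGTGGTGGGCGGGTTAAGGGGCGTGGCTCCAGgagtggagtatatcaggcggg
Zdhhc5 promoter, chr2:84715601-84715820: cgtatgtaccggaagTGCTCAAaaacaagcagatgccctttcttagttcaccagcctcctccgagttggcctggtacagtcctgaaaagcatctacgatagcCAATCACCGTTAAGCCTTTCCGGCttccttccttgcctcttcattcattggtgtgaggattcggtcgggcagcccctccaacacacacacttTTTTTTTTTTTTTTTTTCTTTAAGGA
Dgkd, intergenic DNA, chr1:87847301-87847500: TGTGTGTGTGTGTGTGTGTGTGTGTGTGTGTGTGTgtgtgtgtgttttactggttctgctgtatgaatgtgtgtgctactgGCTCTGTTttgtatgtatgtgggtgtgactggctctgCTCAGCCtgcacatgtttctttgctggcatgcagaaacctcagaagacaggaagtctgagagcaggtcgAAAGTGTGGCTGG
Mylpf promoter, chr7:127208781-127209080: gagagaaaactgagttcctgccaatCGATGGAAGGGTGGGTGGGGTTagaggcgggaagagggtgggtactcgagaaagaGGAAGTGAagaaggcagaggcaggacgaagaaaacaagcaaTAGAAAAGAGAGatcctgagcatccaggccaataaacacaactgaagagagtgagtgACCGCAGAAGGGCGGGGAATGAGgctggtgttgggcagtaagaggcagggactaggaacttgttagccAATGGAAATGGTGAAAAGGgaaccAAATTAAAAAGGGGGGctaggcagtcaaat

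The next sequence is the densest site at which replicate 1 had no base below 0.05, and it is followed by the densest site of the largest cluster of replicate 2-only sites, near the start of chromosome 17. Capitals again mark replicate 2 footprints.
Cirbp promoter, chr10:80165061-80165280: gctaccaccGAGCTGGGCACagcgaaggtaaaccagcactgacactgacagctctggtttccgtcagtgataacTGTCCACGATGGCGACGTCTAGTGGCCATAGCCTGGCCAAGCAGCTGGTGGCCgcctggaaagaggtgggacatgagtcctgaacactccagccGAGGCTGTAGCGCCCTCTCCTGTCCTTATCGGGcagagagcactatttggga
Largest cluster, nearest gene Scaf8, chr17:3010941-3011180: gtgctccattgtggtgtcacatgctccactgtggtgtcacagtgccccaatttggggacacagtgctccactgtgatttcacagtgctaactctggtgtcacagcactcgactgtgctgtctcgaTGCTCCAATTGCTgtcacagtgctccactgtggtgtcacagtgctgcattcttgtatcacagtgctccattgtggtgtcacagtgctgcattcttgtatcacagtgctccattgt

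CTCF matches were found in only 5 of the 7074 sites, and the densest 2 are printed with the match in capitals. The last 2 are examples of sites of at most 300 bp with a RUNX or TCF/LEF match in the 150 bp around the midpoint, again in capitals: TCF/LEF (CTTTGAT, here on the other strand) at Fhit and RUNX (TGNGGTT) at Coro7.
Lsm11, intergenic, chr11:45926881-45927060: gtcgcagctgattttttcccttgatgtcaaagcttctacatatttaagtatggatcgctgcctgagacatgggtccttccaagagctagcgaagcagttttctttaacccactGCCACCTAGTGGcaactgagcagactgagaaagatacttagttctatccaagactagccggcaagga
Sh3pxd2a intron, chr19:47356461-47356640: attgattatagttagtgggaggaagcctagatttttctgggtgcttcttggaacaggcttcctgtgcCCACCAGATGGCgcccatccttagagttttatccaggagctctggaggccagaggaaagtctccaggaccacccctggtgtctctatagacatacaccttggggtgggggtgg
Exon, nearest gene start Fhit, chr14:10453321-10453520: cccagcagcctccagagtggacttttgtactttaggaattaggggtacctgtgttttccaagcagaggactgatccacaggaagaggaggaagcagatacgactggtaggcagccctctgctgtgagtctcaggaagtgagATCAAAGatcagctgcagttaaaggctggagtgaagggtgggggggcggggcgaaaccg
Coro7 intron, chr16:4683721-4683920: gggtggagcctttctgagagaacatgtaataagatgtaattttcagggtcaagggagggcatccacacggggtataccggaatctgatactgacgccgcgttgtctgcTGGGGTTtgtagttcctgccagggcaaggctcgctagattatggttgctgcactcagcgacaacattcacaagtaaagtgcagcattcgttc

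Replicate 2-only sites were weak and narrow. The deposited density, a value per peak that the authors made and whose scaling is not stated, had a median of 0.258 at replicate 2-only sites (quartiles 0.162 and 0.402, range 0.0480 to 15.1) and 1.09 at shared peaks (quartiles 0.606 and 2.87). Density values of replicate 2 were whole multiples of a step of 0.0060 (tolerance 0.1 of a step, met by 100%), so the medians stood at 43 and 181 steps. Median width was 124 bp at replicate 2-only sites and 200 bp at shared peaks, and the sites summed to 1.13 Mb against 11.7 Mb. In the lowest density decile 4798 of 6689 peaks, or 71.7%, were found in replicate 2 only, and the share was 14.4% in the second decile, 2.82% in the fifth and 0.138% (9 of 6541) in the highest. The shorter replicate 2 list held 33.7% of the replicate 2-only sites and 74.6% of shared peaks (70.2% of all). Within the lowest decile the order turned round, and the shorter list held 34.2% of replicate 2-only sites and 9.41% of shared peaks. Width turned round there too, with medians of 118.5 bp at replicate 2-only sites and 100 bp at shared peaks.

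**Figure D1:**
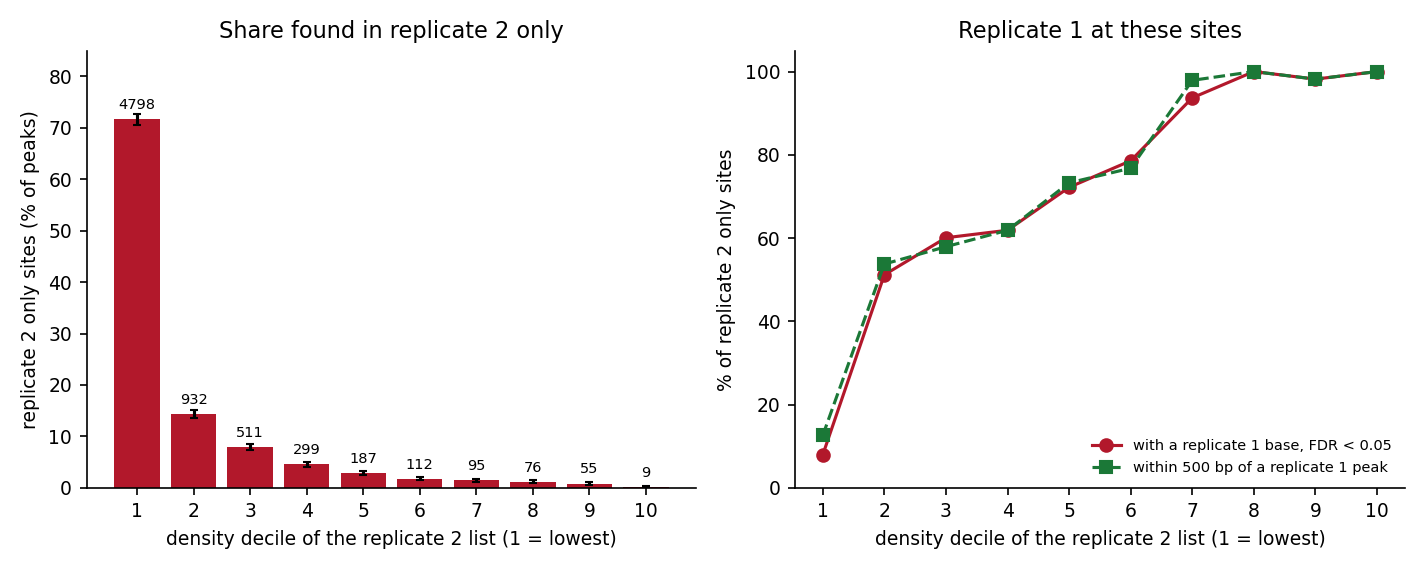
Left, share of replicate 2 peaks found in replicate 2 only (y axis, percent, with 95% Wilson intervals and the number of sites above each bar) by density decile of the replicate 2 list (x axis). Right, percent of those sites with a replicate 1 base below a false discovery rate of 0.05. It also shows the percent of those sites within 500 bp of a replicate 1 peak. The share in the left panel is 71.7% in decile 1 and 0.138% in decile 10. Few weak sites and nearly all dense ones have replicate 1 signal at or beside them.

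Replicate 1 had signal at a minority of the sites. At 1800 of 7074, or 25.4% (95% Wilson interval 24.4% to 26.5%, counting error only), at least 1 base was below 0.05 in replicate 1, where 91.9% of all autosomal replicate 2 peaks and 100% of shared ones had such a base. A base at or below 0.001 was present at 1443 sites (20.4%, against 87.3% of all peaks). Coverage was mostly all or none: of the 1800 sites, 1496 had every base listed in replicate 1 and 221 had under 50% listed. The other 5274 sites (74.6%) had no listed replicate 1 base. Sites with a listed base had a median density of 0.480 and lay a median 140 bp from the nearest replicate 1 peak, and sites with none had 0.210 and 9658 bp. Of the 1800, 1598 lay within 500 bp of a replicate 1 peak. In the opposite direction, 4206 of the peaks found in replicate 1 only (6.395%) had a listed replicate 2 base, where 50.4% of all autosomal replicate 1 peaks had one. The shorter replicate 1 list is not a subset of the longer one, and 57 replicate 2-only sites overlapped it.

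Distance to replicate 1 peaks separated the sites. The median gap was 4462 bp (quartiles 340 and 23117 bp), the longest 947879 bp, and 74 sites touched a replicate 1 peak end to end without overlap. Within 500 bp lay 2041 sites, 28.9% of them and 3.12% of all replicate 2 peaks. For 1590 of these (77.9%), the neighbouring replicate 1 peak was itself overlapped by a different replicate 2 peak, so the site lay beside a shared peak. Those neighbours were strong, with a median replicate 1 density of 3.48. For the remaining 451 sites the neighbour had a median of 0.428, on the scale of replicate 1. In the opposite direction, 13047 peaks found in replicate 1 only (19.8%) lay within 500 bp of a replicate 2 peak. At the edge of the rule, the 123 sites closer than 20 bp to a replicate 1 peak had a median density of 0.474, and the 153 shared peaks that overlapped one by 20 bp or less had 0.414.

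**Figure D2:**
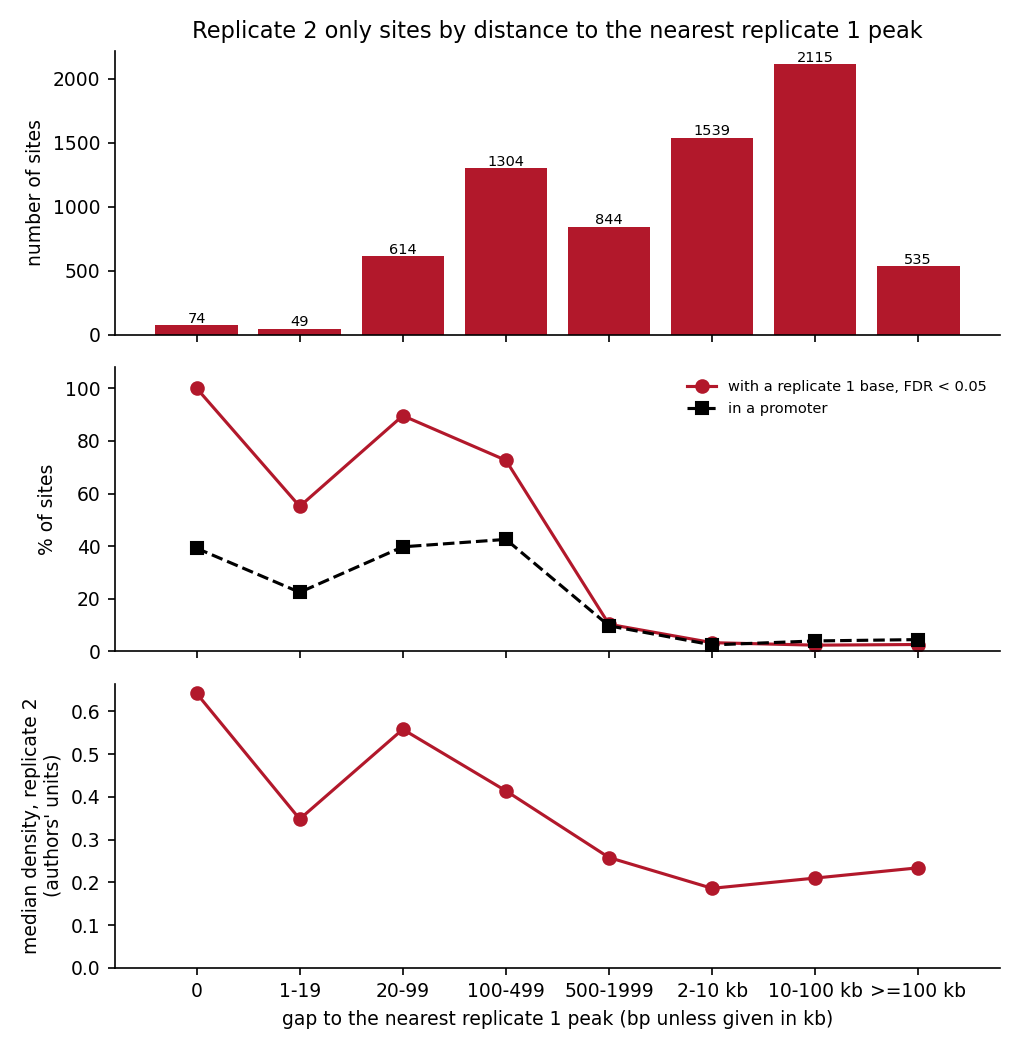
Replicate 2-only sites by the gap to the nearest replicate 1 peak (x axis): number of sites (top), percent with a replicate 1 base below 0.05 and percent in a promoter (middle), and median density in the authors' units (bottom). Below 500 bp between 55.1% and 100% of a class have a listed replicate 1 base, and from 2000 bp outward 3.31% or fewer do.

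The 3 kinds of site, defined by place, are kept apart below; the split was made after the data had been seen. Chaining sites that lie at most 10 kb apart gave 93 clusters of 10 or more, with 1790 sites (25.3%). Outside clusters, 1927 sites (27.2%) lay within 500 bp of a replicate 1 peak, and 3357 (47.5%) were scattered farther away. A replicate 1 base below 0.05 was listed at 82.2% of sites beside replicate 1 peaks, 1.06% of cluster sites and 5.87% of scattered sites. A footprint was counted in a site when its midpoint lay inside it. Footprints of replicate 1 were in 22.4% of the first kind and in none of the 1790 and 3357 sites of the other 2 kinds. Footprints of replicate 2 were in 54.7%, 37.2% and 48.4% of the 3 kinds. Together that was 47.3% of replicate 2-only sites, against 90.5% of shared peaks. Cluster sites had the lowest median density, 0.144, and 63.7% of them were in the shorter list. The median density was 0.456 beside replicate 1 peaks and 0.258 among scattered sites, with 34.2% and 17.3% of them in the shorter list.

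**Figure D3:**
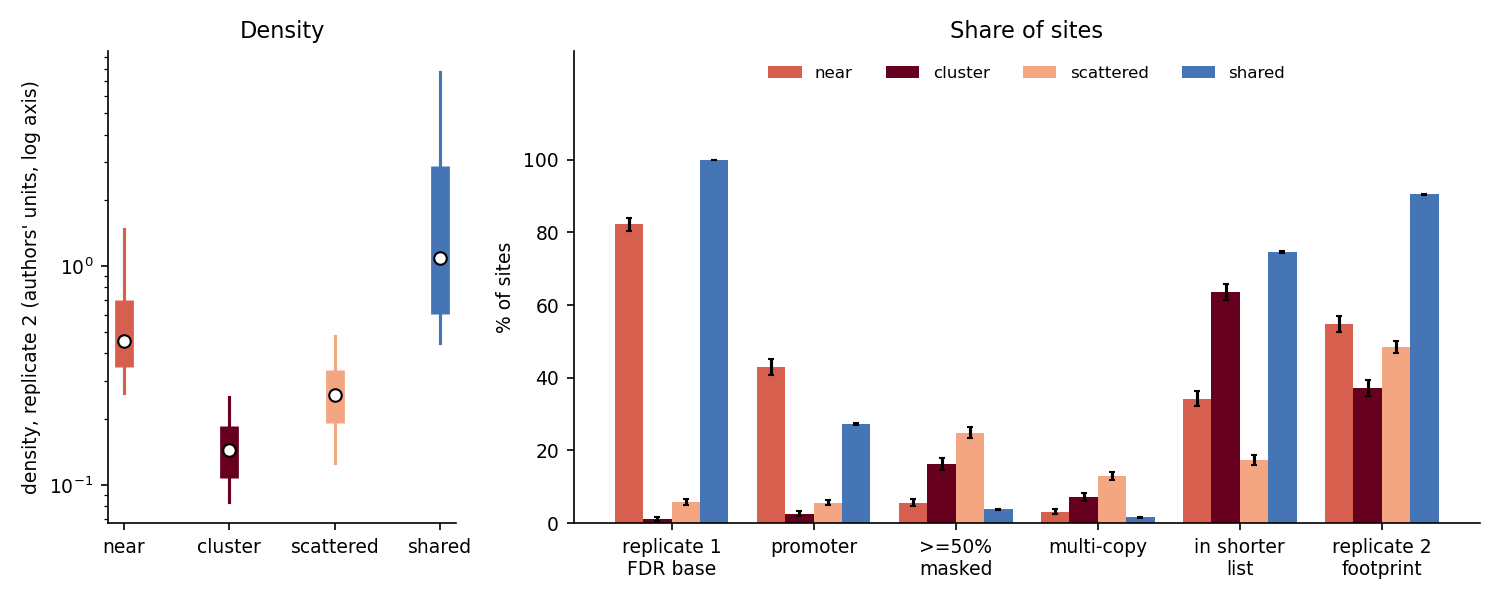
Left, density of replicate 2 peaks on a log axis (authors' units; circle, median; thick bar, quartiles; line, 10th to 90th percentile) for sites near a replicate 1 peak, in clusters and scattered, beside shared peaks. Right, percent of each kind with the named feature, with 95% Wilson intervals: sites near replicate 1 peaks have a replicate 1 base at 82.2% and lie in promoters at 43.1%, while for scattered sites these shares are 5.87% and 5.66%.

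The densest sites belonged to the first kind. The densest of all, 15.1, lay in an intron 1706 bp from the start of Cirbp, which encodes a cold-inducible RNA-binding protein. Replicate 1 listed 71 of its 260 bases and had its nearest peak 360 bp away, with a density of 7.998 on its own scale. The second, 9.95, lay 531 bp from the start of Zdhhc5, a palmitoyltransferase gene, with all 220 bases listed in replicate 1 and a replicate 1 peak of 32.6 at 120 bp. The third, 8.54, lay in intergenic DNA 5886 bp from the start of Dgkd, which encodes a diacylglycerol kinase. The fourth, 8.53, lay 41 bp from the start of Mylpf, a myosin light chain gene of fast skeletal muscle. Next came sites nearest to Pum2 (8.01), Cand1 (7.995), Ewsr1 (7.87), Rasgrp2 (7.13), Vamp1 (7.04) and Tmem253 (6.83). All 10 lay within 500 bp of a replicate 1 peak and 9 of the 10 had every base listed in replicate 1, the exception being Cirbp. In 8 of the 10 the neighbouring replicate 1 peak was also overlapped by another replicate 2 peak, and at Rasgrp2 and Tmem253 it was not. Among the 100 densest sites, 99 lay within 500 bp, 99 had a listed replicate 1 base and 73 were in promoters.

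Dense sites with no listed replicate 1 base were few. The densest, 3.63, was the Cirbp promoter site printed above, 814 bp from the gene start, with 3 replicate 2 footprints and the nearest replicate 1 peak 680 bp away. It was followed by an exon site nearest to Celf5, an RNA-binding protein gene (1.87, with a replicate 1 peak 42 bp away), and a promoter at AW822073 (1.76). Next came an exon site nearest to Eef2, which encodes translation elongation factor 2 (1.58), and intergenic DNA near 4930467E23Rik (1.53). The first 4 of these 5 lay on chromosome 10. The AW822073 and 4930467E23Rik sites were in DNA whose 31-base words had a median of 2 and 12 copies in the genome, and the other 3 were single copy.

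The clusters were runs of weak sites packed into short stretches of the genome. All 93 together spanned 1.53 Mb, or 0.0619% of autosomal length, with spans of 5.27 to 51.0 kb (median 13.8 kb), and each of the 19 autosomes held at least 1. Of the 1911 replicate 2 peaks in these spans 93.7% were replicate 2-only sites, and replicate 1 had 156 peaks there, with 46 clusters holding none. Bases below 0.05 covered 38.9% of the spans in replicate 2 (593 kb) and 3.51% in replicate 1 (53.5 kb). With sites chained at 2 kb, 19.3% of replicate 2-only sites, 1.04% of shared peaks and 2.04% of peaks found in replicate 1 only fell in runs of 10 or more. At 10 kb the shares were 25.3%, 11.0% and 6.804%, and at 20 kb they were 25.9%, 30.8% and 18.4%. The numbers of runs, in the same order, were 81, 49 and 92 at 2 kb and 93, 476 and 290 at 10 kb. Sites in a run can overlap one another, as some did in the largest cluster, and each was counted.

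The largest cluster, chr17:3002248-3037580, held 63 sites in 35.3 kb of DNA next to the unsequenced start of the chromosome, with 67.6% of its bases below 0.05 in replicate 2 and 0 bases and 0 peaks in replicate 1. Its sequence, printed above, was periodic, and this was measured as the best share of positions that stayed identical after a shift of 10 to 100 bases, in 300 bp around each site. The median over this cluster was 65.9%, at a shift of 21 bases. Counting 50% or more as periodic, 10.7% of cluster sites were periodic, 1.49% of scattered sites and 0.675% of sites beside replicate 1 peaks, which was 3.60% of all replicate 2-only sites against 0.545% of shared peaks and 1.80% of windows on a genome grid. Most of the periodic cluster sites lay in 6 clusters in which 50% or more of the sites were periodic, together holding 204 sites. These were the largest one, chr3:3000111-3033540 (44 sites, shift 21), chr2:116532749-116568640 (41 sites, shift 29), chr4:3050258-3087960 (25 sites, shift 21), chr16:3635801-3654460 (21 sites, shift 30) and chr18:3113241-3120780 (10 sites, shift 22). At the chromosome 4 array replicate 1 had 40 peaks, and 25 of the 58 replicate 2 peaks there were replicate 2-only sites. Replicate 1 had 1 peak at the array on chromosome 18 and none at the other 4. Assembly gaps of 10 kb or more lay within 100 kb of 5 of the 93 clusters, and of 4.17% of replicate 2-only sites against 1.25% of shared peaks.

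**Figure D4:**
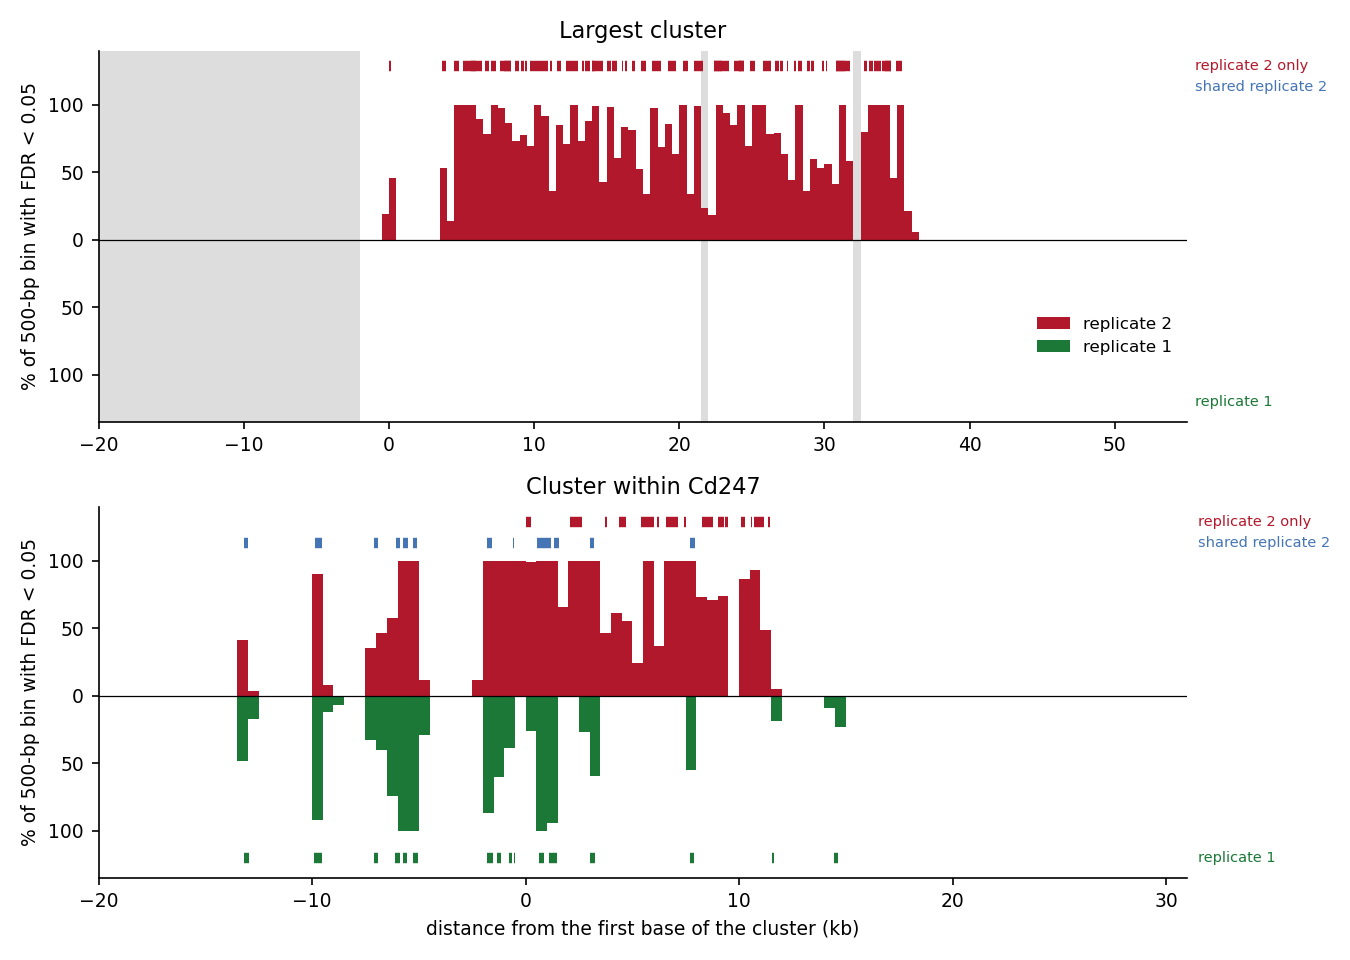
Share of each 500-bp bin with a false discovery rate below 0.05 (y axis, percent), upward for replicate 2 and downward for replicate 1, by distance from the first base of the cluster (x axis, kb), for the largest cluster and for that in Cd247; marks show peaks and grey shows bins of unsequenced bases. Replicate 1 has no listed base in the upper map, and in the Cd247 map it has peaks under shared replicate 2 peaks while replicate 2 signal fills 75.9% of the cluster.

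The other 87 clusters, with 1586 sites, lay in DNA that was not periodic by this measure, and in 81 of them under 50% of the sites were multi-copy. In 59 of the 93 no site was multi-copy. The next largest were chr17:87862426-87913392 (49 sites, nearest gene Rpl36-ps4), chr9:102346461-102388580 (46 sites, overlapping Ephb1, an ephrin receptor gene) and chr9:46790401-46820800 (42 sites, nearest gene Gm4791). Replicate 2 had 42.0%, 29.5% and 48.2% of these 3 spans below 0.05, and replicate 1 had 1.24%, 1.64% and 0.865%. Of all 93 clusters, 43 overlapped no protein-coding gene. In 87 clusters the median density was under 0.3. The 6 above it were 2 near Zfp978 on chromosome 4 (0.468 and 0.612), and 1 each near Mroh2a (0.522), Gm15319 (0.456), AW822073 (0.813) and Gm21863 (0.468), and in 4 of these 6 clusters between 66.7% and 100% of the sites were multi-copy.

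A cluster with a T-lineage gene around it was examined in more detail. Cd247 (ENSMUSG00000005763) encodes the CD3 zeta signalling chain of the T-cell receptor. Inside this gene 19 sites lay in chr1:165850781-165862210 and covered 37.7% of that span. Replicate 2 had 75.9% of the bases of the span below 0.05 and 23 peaks, and replicate 1 had 15.8% and 5 peaks. The map of this cluster shows shared peaks in both libraries and replicate 2 signal that continues between them. Site densities there were 0.108 to 0.498 (median 0.174), and none had a listed replicate 1 base.

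A smaller share of replicate 2-only sites than of shared peaks lay at promoters, and the 3 kinds had different shares. Centred within 1 kb of a protein-coding gene start were 15.1% of replicate 2-only sites (95% Wilson interval 14.3% to 15.9%), 27.3% of shared peaks (26.96% to 27.7%) and 1.60% of windows on a grid of 119778 genome positions. Exons held 9.09% and 6.96%, introns 27.9% and 34.3%, and intergenic DNA 48.0% and 31.4% of replicate 2-only sites and shared peaks, with 58.0% of grid windows intergenic. Sites beside replicate 1 peaks were in promoters at 43.1%, scattered sites at 5.66% and cluster sites at 2.63%. In the lowest density decile the promoter share was 7.67% at replicate 2-only sites and 17.4% at shared peaks. In deciles 2 to 5 the order was the other way, 26.4% and 14.5%, and so it was in deciles 6 to 10, 54.8% and 37.5%, although in the highest decile alone, with 9 sites, it was 66.7% and 70.4%. The median distance to a gene start was 26940 bp for replicate 2-only sites and 11921 bp for shared peaks. Peaks are not replicates of an animal, so the intervals cover counting error only.

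By chromosome the replicate 2-only share of replicate 2 peaks was between 13.4% (chromosome 4) and 6.07% (chromosome 11). Chromosome 17 had the most sites per length, 4.54 per Mb, and 192 of its 431 sites were in clusters. With cluster sites left out, the share was between 10.8% (chromosome 14) and 5.54% (chromosome 11).

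Nearest genes were spread thinly, apart from the clusters. The 7074 sites had 3420 different nearest protein-coding genes, 2409 of which had 1 site and 97 had 10 or more. With a territory defined as a gene extended by 10 kb at both ends, 3414 of 20807 genes (16.4%) held a site. The fullest territories were those that overlap a cluster. Igsf5 (ENSMUSG00000117081) and its neighbour Itgb2l, an integrin beta-like gene, each held 33 sites, of 36 and 34 replicate 2 peaks, all of them in 1 cluster. Pdzk1, a scaffold protein gene, had 32 of 34, Cacna1b, a neuronal calcium channel gene, 29 of 38, Sirpa, an inhibitory receptor of myeloid cells that binds CD47, 28 of 30, and the lipid phosphatase gene Plpp2 28 of 30. Ankrd46 had 26 of 27, the RNA methyltransferase gene Nsun2 25 of 28, a second gene model of Igsf5 (ENSMUSG00000000159) 25 of 28 and 4930556J24Rik 24 of 27. Replicate 1 had 2 to 7 peaks in 9 of these 10 territories and 25 in that of Cacna1b. Of the sites in them, between 17 and 33 per gene were in clusters.

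Among the gene lists, the share of replicate 2 peaks found in replicate 2 only was read against 8.75% over the territories of all protein-coding genes (6313 of 72132), which is lower than the 10.8% of all peaks, and neighbouring genes can both count a peak. T-lineage surface and signalling genes were at 12.3% (39 of 318 peaks, in 11 of 25 genes), but 20 of the 39 sites belonged to Cd247, 19 of them in its cluster. Rhoh, the gene of a small GTPase of T-cell receptor signalling, had 2 of 17. T-lineage transcription factors were at 6.52% (29 of 445), of which Foxp1 had 4 of 61 and Tcf7, the gene of TCF-1, 4 of 42. The recombination and end-joining list was at 10.8% (11 of 102), and 8 of the 11 lay at Dntt, the gene of terminal deoxynucleotidyl transferase, which adds bases at receptor gene joints, with none in a cluster. Without Dntt the list stood at 3.85% (3 of 78). Hmgb1 had 2 of 25 and Xrcc4 1 of 3. Selection and apoptosis genes were at 3.70% (5 of 135), led by Egr2 with 3 of 13.

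The lists of other lineages held few sites, apart from the muscle list. Housekeeping genes were at 2.67% (2 of 75, at Ppia and Actb), B cell genes at 7.02% (4 of 57, where the territories of the neighbours Igll1 and Vpreb1 overlap), and myeloid and dendritic genes at 3.28% (2 of 61, both at Spi1). Thymic epithelium genes were at 5.56% (2 of 36), stroma and endothelium at 9.43% (5 of 53), neuron genes at 5.66% (3 of 53), liver genes at 5.26% (1 of 19) and the adipocyte and parathyroid list at 3.85% (1 of 26), while erythroid genes had 0 of 19. Muscle genes were at 35.3% (18 of 51), and 13 of the 18 lay in a cluster at Tnni2, the fast troponin I gene, with 15 replicate 2 and 4 replicate 1 peaks. Mylpf had 3 and Ttn, the titin gene, 2. Without Cd247 the T-lineage surface and signalling list stood at 6.99% (19 of 272), and without Tnni2 the muscle list stood at 13.9% (5 of 36).

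Repeat content was higher at replicate 2-only sites than at shared peaks and lower than in the genome at large. Soft-masked repeats made up 19.5% of the bases of replicate 2-only sites, 9.62% of those of shared peaks and 33.5% of grid windows. Sites with 50% or more of their bases masked were 17.4% (95% Wilson interval 16.6% to 18.3%), against 3.87% of shared peaks (3.72% to 4.03%) and 28.1% of grid windows. Scattered sites had the most, 24.9%, cluster sites 16.1% and sites beside replicate 1 peaks 5.60%. In the lowest decile the shares were 22.1% at replicate 2-only sites and 11.2% at shared peaks. Peaks whose 31-base words had a median above 1 copy in the genome made up 8.75% of replicate 2-only sites (8.11% to 9.43%), 1.61% of shared peaks (1.51% to 1.71%) and 14.6% of grid windows. Multi-copy shares were 12.9% at scattered sites, 7.09% in clusters and 3.11% beside replicate 1 peaks. This contrast was small in the lowest decile, 9.05% and 7.46%, and larger in deciles 2 to 5, 8.76% and 1.93%. Short tandem repeats of 24 bp or more were in 0.834% of replicate 2-only sites, 1.67% of shared peaks and 3.70% of grid windows. By kind they were in 1.09% of sites beside replicate 1 peaks, 1.23% of cluster sites and 0.477% of scattered sites. Each peak was searched over its whole width, so these shares also depend on width. How reads that match several places were treated is not given in the sources used here, and its part in these shares was not tested.

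Base composition lay between shared peaks and the genome. GC made up 54.6% of the bases of replicate 2-only sites, 57.9% of those of shared peaks and 41.9% of grid windows, and CpG dinucleotides numbered 2.59, 4.53 and 0.845 per 100 bases. Sites beside replicate 1 peaks had 4.97 CpG per 100 bases, scattered sites 2.13 and cluster sites 1.33. In deciles 6 to 10 the value was 6.07 at replicate 2-only sites and 5.31 at shared peaks.

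Consensus matches within 150 bp windows on either strand mostly had lower shares at replicate 2-only sites than at shared peaks. For 13 of 18 motifs the interval of replicate 2-only sites lay below that of shared peaks, and for 2 above it. Against the genome grid, the interval lay above for 9 motifs and below for 6. The grid was not matched for GC, which was 54.6% at replicate 2-only sites and 41.9% in grid windows. CTCF stood lowest relative to shared peaks, with 5 matches in 7074 sites (0.0707%, 95% Wilson interval 0.0302% to 0.165%) against 4.67% of shared peaks (4.50% to 4.85%) and 0.0818% of grid windows. In the lowest density decile it was in 1 of 4798 sites (0.0208%), against 65 shared peaks (3.44%). Of the 5 sites, those near Lsm11, Sh3pxd2a, Rfx8 and 1700021F07Rik lay within 500 bp of a replicate 1 peak with every base listed there, and the fifth, near Tbc1d22a, was a cluster site with a density of 0.0720. SP/KLF boxes (GGGCGGG), common in CpG-rich promoters, were in 3.89% of replicate 2-only sites and 14.6% of shared peaks, and ETS (CCGGAA) in 4.72% and 9.66%, with 0.746% and 1.18% of grid windows.

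Among motifs of T-lineage factors, RUNX (TGNGGTT) was in 9.75% of replicate 2-only sites (9.08% to 10.5%), 13.2% of shared peaks (13.0% to 13.5%) and 8.26% of grid windows. The second ETS form (CAGGAAG) was in 8.81% and 16.9%, with 4.81% of grid windows. The first E-box (CAGCTG) was in 13.3% of replicate 2-only sites, 16.8% of shared peaks and 5.45% of grid windows. For the second E-box (CACCTG) these shares were 19.96%, 22.7% and 9.29%. TCF/LEF (CTTTGAT) was in 1.92% of replicate 2-only sites and 2.52% of shared peaks, below the 2.89% of grid windows, and the word for GATA factors (AGATAA) in 4.03% and 4.06%, below 10.1%. MYB (CAACTG) was in 8.62% (7.99% to 9.30%) against 7.40% (7.19% to 7.62%), with 7.29% of grid windows. In 250 bp windows the MYB intervals overlapped, at 12.8% (12.1% to 13.6%) and 12.2% (11.9% to 12.5%). In the lowest density decile MYB was at 8.71% and 7.77% with 150 bp windows, and at 13.2% and 13.5% with 250 bp windows. YY1 (AAGATGGC) was in 2.09% (1.78% to 2.45%) against 1.30% (1.22% to 1.40%), with 1.31% of grid windows, and by kind it was in 2.95% of scattered sites, 1.68% of cluster sites and 0.986% of sites beside replicate 1 peaks.

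The remaining motifs were NFY (CCAATCA, 1.57% of replicate 2-only sites and 3.32% of shared peaks), NRF1 (GCATGCGC, 0.452% and 1.53%), CRE (TGACGTCA, 0.127% and 1.05%), AP-1 (TGANTCA, 3.86% and 4.39%), IRF (0.947% and 1.54%), FOX (TGTTTAC, 1.31% and 1.69%) and POU/OCT (ATGCAAAT, 0.368% and 0.609%). The MYB word differs from the first E-box by a single base. Some contrasts with shared peaks stayed in the lowest density decile, with SP/KLF at 2.40% and 5.98% and RUNX at 9.25% and 12.8%. There CAGGAAG stood at 6.84% and 14.4%, and CCGGAA was closer, at 3.44% and 4.28%. The order turned round in that decile for CACCTG (18.8% and 18.3%), GATA (4.19% and 4.12%), NFY (1.52% and 1.37%) and POU/OCT (0.271% and 0.212%). These differences were small and carry no intervals, and the last 2 rest on few matches (NFY 73 and 26, POU/OCT 13 and 4). A match is a word in the sequence and not a bound site.

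**Figure D5:**
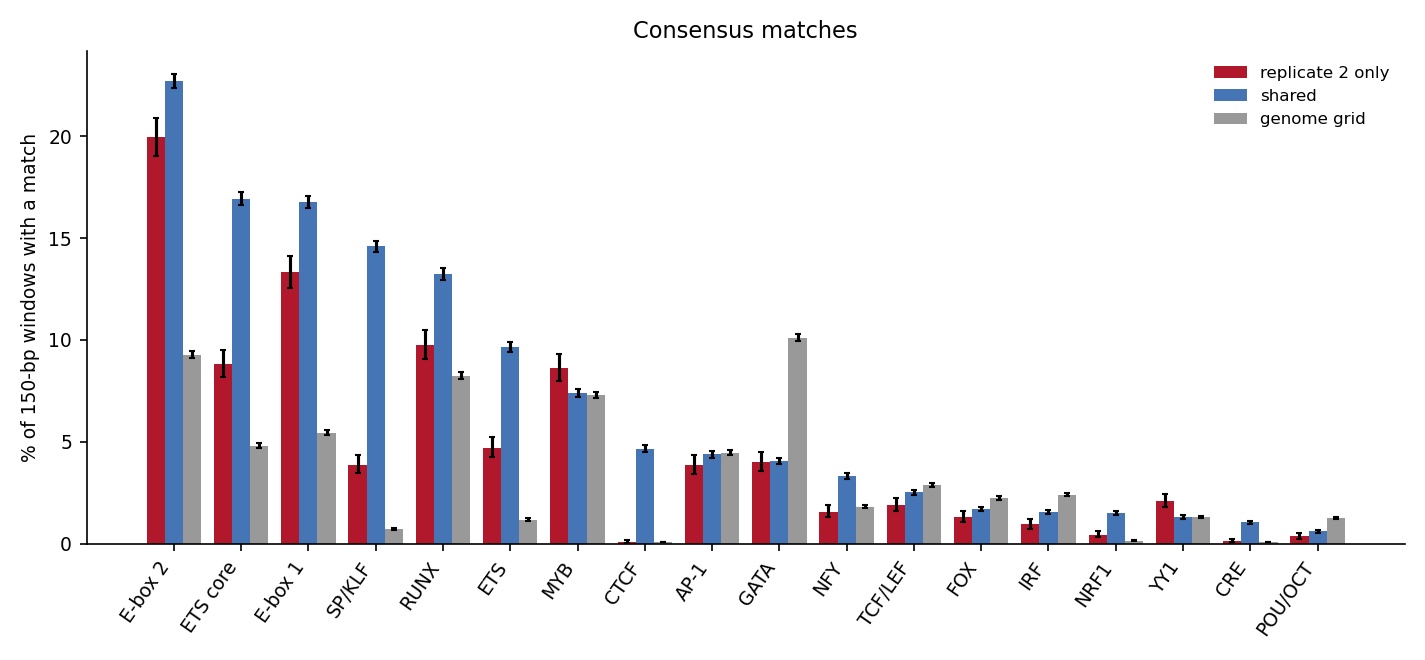
Percent of 150-bp windows with a consensus match on either strand (y axis, with 95% Wilson intervals) for 18 motifs (x axis) at replicate 2-only sites, shared peaks and genome grid windows; E-box 1, E-box 2 and ETS core stand for the first E-box, the second E-box and the second ETS form of the text. CTCF is in 0.0707% of replicate 2-only windows and 4.67% of shared ones. MYB and YY1 are the 2 motifs whose interval lies above that of shared peaks in these windows. In 250-bp windows, not drawn, the MYB intervals overlap.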

How the data were processed

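DNase-seq was done on thymus of 2 mice, 1 library per animal. Per the file notes, each library's files came from its own filtered alignment on mm10 and nothing was pooled. No source used here names the aligner or the callers of peaks and footprints, or any version. The deposited peak lists carry a signal density per peak, whose scaling by the authors is not stated. The deposited false discovery rate files hold q-values for runs of bases and keep only those below 0.05. In the deposited footprint files, the number per line is constant and only positions were used.

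Overlaps, gaps and covered bases were computed per peak. Genes were the protein-coding genes of GENCODE M21, and repeats were the soft-masked bases of GRCm38.p6, the same build as mm10. A promoter reached 1 kb to each side of a gene start, and classes were set by peak midpoint. Copies were counted for 31-base words on both strands. Grid windows of 150 bp lay every 20 kb. Interval functions were checked on simulated intervals. Python 3.11.15 was used with numpy 2.4.6, pandas 2.3.3, scipy 1.17.1, numba 0.67.0 and matplotlib 3.10.9.

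The libraries form 1 group, so nothing was tested, and shares carry 95% Wilson intervals for counting error. Read depth is unknown. Members, gene lists, motifs and rules were chosen with earlier results of these data known. Clusters, the 3 kinds of site and the periodicity measure were chosen after the sites had been examined. The rule for named genes took the nearest genes of the 10 densest sites, of the 5 densest with no replicate 1 base and of the 5 densest in promoters, the 10 genes with most sites in their territory, and the 3 of each list with most; some genes it named are not reported here. Sequences from chromosome 18 were not printed. Alternatives covered the overlap rule, the peak lists, the thresholds and subsets of sites.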

Additional observations from a re-analysis of the deposited data

How the results depend on the processing

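The number of sites was 6337 with replicate 1 peaks extended by 100 bp, 8759 with at least 50% overlap required, 10244 against the shorter replicate 1 list, 7528 with chromosome X and 6926 after merging, but 2937 of 46667 (6.29%) for the shorter replicate 2 list. With a limit of 0.001, at least 50% of bases or 100 bp added, the share with replicate 1 bases was 20.4%, 22.3% and 27.9%. The promoter share was 9.13% within 500 bp, 19.9% with genes of any biotype and 21.9% with any transcript start. Counting sites with 50% or more masked gave 17.4%, and 24-base words gave a multi-copy share of 13.2%.

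Shares depended on which sites were taken. At the 350 sites at or above the list's median density, 54.6% were in promoters, 8.77% of bases were masked, 4.57% were multi-copy and 91.1% had replicate 1 bases. At the 5033 sites 500 bp or more from replicate 1 peaks the values were 4.53%, 23.3%, 10.8% and 4.01%. At the 2383 sites also in the shorter list they were 16.1%, 16.1%, 5.50% and 25.8%. Outside clusters, an alternative added after seeing the data, they were 19.3%, 18.8%, 9.31% and 33.7%. The median density was 0.192 in the shorter list and 0.312 outside clusters. Chaining at 2 kb or 20 kb, also added later, gave 81 or 96 clusters. Of the 18 motifs, 10 exceeded the grid share with windows of 150 and of 250 bp.

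Leaving out a replicate gives no value, because the sites are defined by both libraries. No paired analysis was possible because the labels give 1 group and no test was run. Depth is unknown, so whether a weak site was missed in replicate 1 for lack of reads was not tested.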

Other observations

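Peaks on chromosome X, left out above, numbered 1817 in the longer replicate 2 list, and 454 of them (25.0%) overlapped no replicate 1 peak, against 10.8% on the autosomes.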
